A study of Mus musculus with 10 samples.

Results

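The genes described here encode the matrix metalloproteinases (Mmp), the tissue inhibitors of metalloproteinases (Timp), the secreted ADAMTS proteases (Adamts) and the ADAMTS-like proteins (Adamtsl), in portal tracts of 1-week-old mouse liver. They were taken by gene symbol, from probe sets annotated with exactly 1 symbol, and number 49 of the 22180 genes measured: 22 Mmp, 4 Timp, 18 Adamts and 5 Adamtsl genes. Portal tracts hold a bile duct, branches of the portal vein and hepatic artery and their fibroblast sheath. They were cut by laser from frozen sections, 12 to 20 tracts pooled per sample, and RNA was measured on single-colour arrays. The mutant group is Jag1+/-Rfng+/- at 1 week (5 arrays), heterozygous for the Notch ligand gene Jag1 and the fringe glycosyltransferase gene Rfng. The type of either allele and the strain background of these mice are not given. The control group is C57Bl/6J at 1 week (5 arrays), with no allele named. The submitters' question was how programs of remodelling and differentiation differ between the genotypes, and matrix proteases and their inhibitors are a part of tissue remodelling.

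Matrix metalloproteinases are zinc endopeptidases made as inactive precursors. They cut collagens, gelatins, laminins and other matrix and cell-surface proteins. The Timp proteins bind their active sites, Timp3 also blocks several ADAM and ADAMTS enzymes, and Timp2 together with the membrane-anchored Mmp14 activates the precursor of Mmp2. ADAMTS enzymes carry thrombospondin repeats and cut proteoglycans, procollagens or von Willebrand factor, while the ADAMTS-like proteins share the repeats but lack the protease domain and bind fibrillin microfibrils. In liver, stellate cells and portal fibroblasts are known sources of Mmp2 and of Timp proteins, and neutrophils store Mmp8 and Mmp9 in their granules.

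Whether the samples of a group came from separate mice is not stated, so every p-value reflects spread that may be technical. Jag1+/-Rfng+/- replicate 5, whose sample name carries an unexplained suffix, correlated with the other 9 arrays at 0.956 to 0.963, against at least 0.969 among those 9, and was kept. Its erythroid marker list mean was 2.55 relative to the control mean, against -0.19 to 0.33 on the other Jag1+/-Rfng+/- arrays and -0.44 to 0.36 on the control arrays, and the part of blood cell content in its low Mmp2 and Adamts5 values was not tested. Rfng read 4.36 ± 0.16 in Jag1+/-Rfng+/- and 4.82 ± 0.20 in control tracts, and Jag1 read 4.39 ± 0.63 and 5.72 ± 0.93 (log2, SD, n = 5 each). Neither passed the adjusted threshold (limma adjusted p = 0.416 for Rfng and 0.559 for Jag1). Markers of the expected cells were set against the level of absent genes. The mean over the 10 arrays was above it for 8 of 8 measured biliary epithelium and 13 of 14 portal fibroblast markers. The same held for 6 of 6 smooth muscle, 9 of 9 endothelial and 12 of 12 neutrophil markers. Ehf, a biliary marker, was above it on 5 control arrays but on 0 Jag1+/-Rfng+/- arrays. Muc1, another biliary marker, was above it on 5 control and 3 Jag1+/-Rfng+/- arrays. Hepatocyte markers (9 of 9) were also above that level and read brightly, with means from 8.14 (Tat) to 12.4 (Ttr). Biliary marker means ran from 3.75 (Ehf) to 7.08 (Onecut1). The part of hepatocyte RNA in the samples was not tested. The level of absent genes, 3.20 on the log2 scale, is the 95th percentile of 1390 olfactory and vomeronasal receptor genes over the 10 arrays. It was used since no detection calls were at hand.

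By this measure 30 of the 49 genes had a mean over the 10 arrays above the absent level and 19 read at it. Those above were 10 of 22 Mmp, 3 of 4 Timp, 13 of 18 Adamts and 4 of 5 Adamtsl genes. In 18 of the other 19 both group means were at the absent level, and for Adamts8 only the control mean stood just at its edge, with 1 Jag1+/-Rfng+/- array and 2 control arrays above 3.20. Differences of these 19 genes, on the probe sets used, lay within 0.22 log2 of 0. The dimmer probe set of Adamts8, which was not used, differed by -0.32 ± 0.13 (SE, limma unadjusted p = 0.030). Both its group means were at the absent level. With probe sets averaged, Adamts8 had an unadjusted p under 0.05. Timp4 was the one inhibitor among the 19. With Xist and Y-linked genes as the gauge, the level was 2.91 and 31 of the 49 members had a mean above it.

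Of the 18 genes with both means at the absent level, 8 lie in 1 cluster and 10 elsewhere. In RefSeq's gene order on mouse chromosome 9, 10 Mmp genes follow each other without another protein-coding gene between them. Of these, 8 read at the absent level in both groups: Mmp13, Mmp12, Mmp1b, Mmp3, Mmp1a, Mmp10, Mmp27 and Mmp20, among them the collagenases and stromelysins known from inflamed and healing tissue. The other 2, Mmp8 and Mmp7, had both group means above it, Mmp7 only on the brighter of its 2 probe sets. Outside the cluster 28 of 39 members were above it in both groups. The promoters of the cluster also differ in letters from those of the other members. RefSeq windows (GRCm38.p6, 250 bases before to 50 after the annotated start, read along the gene) were at hand for 34 of the 49 genes, 37 windows in all. They were searched on both strands for 4 motifs. The AP-1 site was TGAGTCA. The TATA box was spelled TATAAA. For the GC box the letters were GGGCGG. The binding core of the Notch effector RBPJ was GTGGGAA. In the printed windows no letter belongs to more than 1 motif. Spelled exactly as above, an AP-1 site was found for 7 of 10 cluster genes and 0 of 24 others. A TATA box was found for 9 of 10 and 3 of 24, and a GC box for 0 of 10 and 20 of 24. The RBPJ core was in the windows of 1 of 10 cluster genes and 2 of 24 others. Among all 32851 windows of the reference, 5.20% held the AP-1 site, 13.6% the TATA box, 35.7% the GC box and 6.38% the RBPJ core. Cluster genes share their origin and are not independent, and a match is only a description of letters. The windows below are shown because they carry this contrast. The first set holds cluster genes, of which Mmp13 and Mmp10 read at the absent level and Mmp8 above it. The second holds Mmp14 and the Timp genes above the absent level. Capitals mark the motif matches on either strand.
Mmp13 (chr9:7272264-7272563, plus strand): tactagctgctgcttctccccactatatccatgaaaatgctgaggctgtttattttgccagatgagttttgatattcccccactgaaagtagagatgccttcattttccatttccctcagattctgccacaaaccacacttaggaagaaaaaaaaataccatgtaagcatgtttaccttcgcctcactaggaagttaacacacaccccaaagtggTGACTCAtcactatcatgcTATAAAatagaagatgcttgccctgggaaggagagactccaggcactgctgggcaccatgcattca
Mmp10 (chr9:7502092-7502391, plus strand): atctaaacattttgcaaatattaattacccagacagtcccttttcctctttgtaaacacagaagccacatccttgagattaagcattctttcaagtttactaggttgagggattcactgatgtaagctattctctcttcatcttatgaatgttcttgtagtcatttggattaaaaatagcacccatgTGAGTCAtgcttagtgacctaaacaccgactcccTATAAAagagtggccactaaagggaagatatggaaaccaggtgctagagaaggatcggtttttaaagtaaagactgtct
Mmp8 (chr9:7558179-7558478, plus strand): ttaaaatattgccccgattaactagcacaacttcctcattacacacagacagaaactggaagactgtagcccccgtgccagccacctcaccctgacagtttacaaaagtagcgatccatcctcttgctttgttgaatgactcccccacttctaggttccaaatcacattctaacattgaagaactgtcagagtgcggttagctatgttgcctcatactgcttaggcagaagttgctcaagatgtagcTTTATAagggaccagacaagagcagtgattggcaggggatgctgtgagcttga
Mmp14 (chr14:54431348-54431647, plus strand): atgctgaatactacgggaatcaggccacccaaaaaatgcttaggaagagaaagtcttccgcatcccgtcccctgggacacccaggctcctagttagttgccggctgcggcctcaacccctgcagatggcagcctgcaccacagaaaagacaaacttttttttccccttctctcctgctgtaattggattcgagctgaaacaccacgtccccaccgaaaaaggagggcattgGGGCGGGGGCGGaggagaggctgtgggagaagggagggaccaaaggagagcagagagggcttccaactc
Timp1 (chrX:20869916-20870215, plus strand): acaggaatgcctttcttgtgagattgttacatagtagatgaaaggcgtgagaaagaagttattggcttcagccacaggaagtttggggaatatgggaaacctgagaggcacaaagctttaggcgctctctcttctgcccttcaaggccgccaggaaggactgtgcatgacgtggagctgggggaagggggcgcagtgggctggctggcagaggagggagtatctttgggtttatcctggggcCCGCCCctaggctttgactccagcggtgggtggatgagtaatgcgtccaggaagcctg
Timp2 (chr11:118355362-118355661, minus strand): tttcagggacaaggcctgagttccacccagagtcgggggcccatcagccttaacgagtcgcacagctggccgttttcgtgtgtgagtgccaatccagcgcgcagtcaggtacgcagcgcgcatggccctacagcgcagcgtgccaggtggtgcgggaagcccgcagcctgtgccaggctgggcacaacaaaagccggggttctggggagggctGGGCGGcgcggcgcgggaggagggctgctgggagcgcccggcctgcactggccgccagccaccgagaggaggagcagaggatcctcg
Timp3 (chr10:86300162-86300461, plus strand): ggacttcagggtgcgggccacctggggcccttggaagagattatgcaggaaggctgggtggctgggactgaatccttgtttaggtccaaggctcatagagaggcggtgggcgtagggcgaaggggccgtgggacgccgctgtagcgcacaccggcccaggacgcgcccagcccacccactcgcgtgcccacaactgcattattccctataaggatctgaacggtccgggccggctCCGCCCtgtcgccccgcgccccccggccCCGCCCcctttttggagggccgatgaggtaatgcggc
In Mmp13 and Mmp10 the AP-1 site begins 35 and 63 bases before the annotated start, with a TATA box at 16 and 29 bases. In Mmp8 a TATA box, read on the opposite strand, begins 3 bases before the annotated start and runs across it. Mmp8 has no AP-1 site. The AP-1 site of Mmp13 and the GC boxes of Timp1 and Timp3 are also matches on the opposite strand. The AP-1 site did not follow the level throughout the cluster. Mmp7, just above the absent level on its brighter probe set only, has one in 1 of its windows. Mmp20 and Mmp27, at the absent level, have none. Of the 4 motifs as spelled here, Mmp14, Timp1, Timp2 and Timp3 hold GC boxes only. Near spellings of the AP-1 site, such as TGAGTAA in the Timp1 window, were not searched. A gene without a match may therefore still hold a variant site. No window was at hand for Mmp2, Adamts5, Adamts16 or Adamtsl1.

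Between the genotypes, 0 of the 49 genes passed the adjusted threshold of 0.05 (limma, Benjamini-Hochberg over all genes), where 2 of 22180 genes did (0.00902%). The lowest adjusted p among the members was 0.332. At an unadjusted p under 0.05 there were 4 members, or 8.16%, against 6.76% of all genes, so the share in either direction lies near the background. All 4 were lower in Jag1+/-Rfng+/- tracts: Adamts5, Adamts16, Adamtsl1 and Mmp2. Counting lower genes only, the 4 of 49 members (8.16%) stand against 3.79% of all genes. Whether these shares differ was not tested. All 4 were among the 30 members with a mean above the absent level. Of the 12852 genes above that level, 5.43% were lower with such a p, and 8.88% had such a p in either direction. Leaving out Jag1+/-Rfng+/- replicate 4, control replicate 4 or control replicate 5 gave 7 of the 49 members at an unadjusted p under 0.05 each. Of all genes, 7.11%, 6.91% and 6.65% had such a p in these fits. Leaving out any other array gave 3 to 5 members, against 6% to 7.04% of all genes. In these bulk samples fewer cells of a type and less RNA per cell cannot be told apart.

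Over all measured members the median difference (Jag1+/-Rfng+/- minus control) was 0.00 log2 for the 22 Mmp genes, -0.19 for the 4 Timp genes, -0.20 for the 18 Adamts genes and -0.09 for the 5 Adamtsl genes, against -0.01 for all 22180 genes. Over the genes with a mean above the absent level alone, it was -0.08 for 10 Mmp, -0.50 for 3 Timp, -0.21 for 13 Adamts and -0.07 for 4 Adamtsl genes, and -0.16 for all 30, against -0.02 for the 12852 such genes. Lower in Jag1+/-Rfng+/- were 11 of 22 Mmp, 2 of 4 Timp, 11 of 18 Adamts and 4 of 5 Adamtsl genes, against 11414 of all 22180. Among genes with a mean above the absent level, 8 of 10 Mmp, 2 of 3 Timp, 9 of 13 Adamts and 3 of 4 Adamtsl genes were lower. Over all 12852 such genes, 7101 were lower. The count at an unadjusted p under 0.05 was 1 Mmp, 0 Timp, 2 Adamts and 1 Adamtsl gene. Whether the families differ from each other was not tested. The plot of all differences by family shows the genes at the absent level close to 0 with narrow intervals and the wide intervals among those above it.

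**Figure D1:**
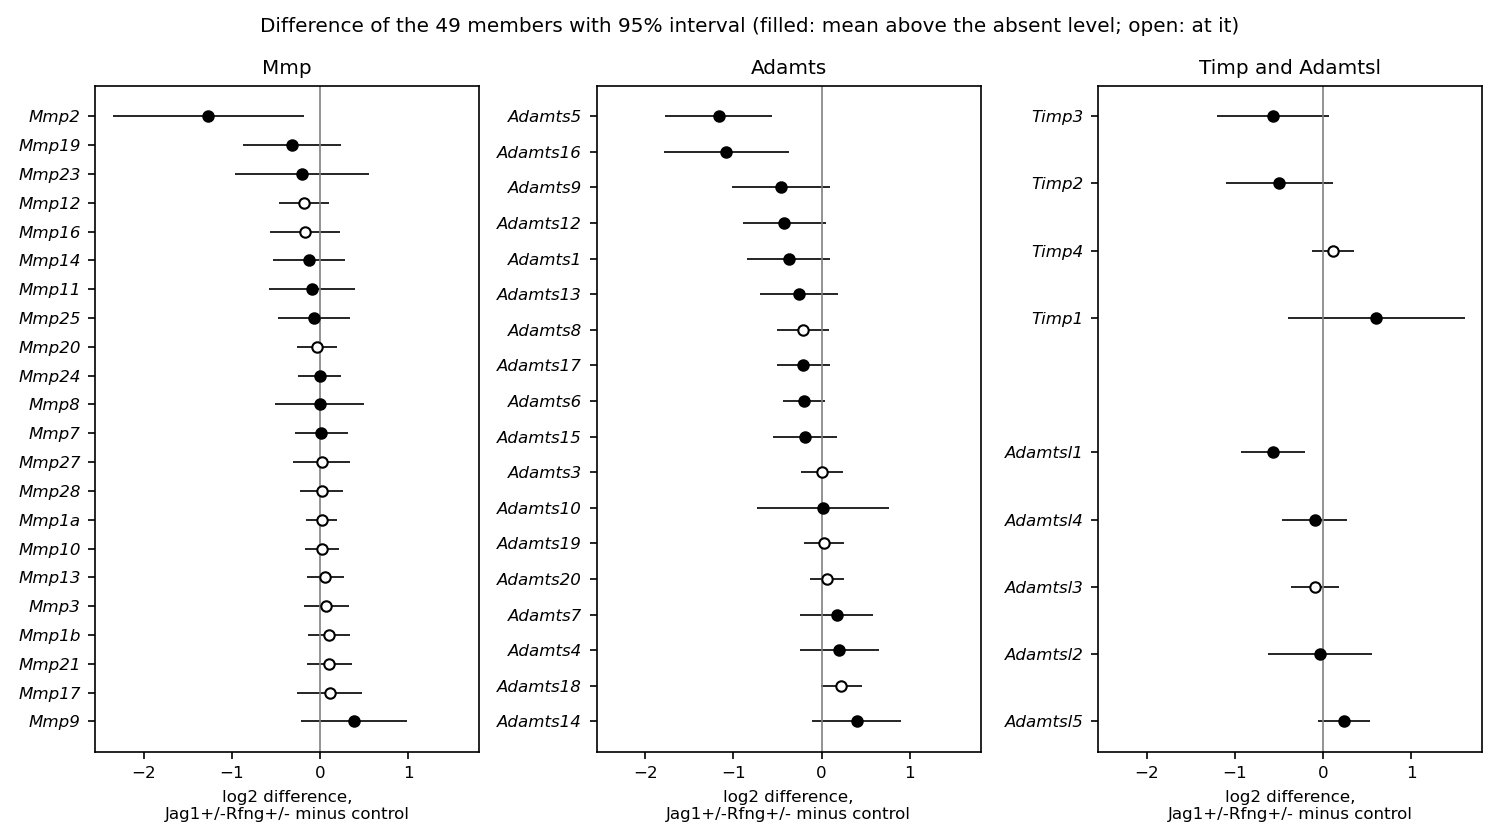
Log2 difference (x axis, Jag1+/-Rfng+/- minus control) of each of the 49 genes by family, with 95% intervals from the limma fit. Filled points had a mean above the absent level of 3.20 and open points did not. The points for Mmp2, Adamts5, Adamts16 and Adamtsl1 have intervals wholly below 0.

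Adamts5, a major aggrecanase that also cuts versican, was the member with the lowest p. It read 3.94, 5.07, 4.74, 4.82 and 4.04 log2 in Jag1+/-Rfng+/- replicates 1 to 5 and 5.53, 6.00, 6.44, 5.10 and 5.35 in control replicates 1 to 5. Every Jag1+/-Rfng+/- array lay below every control array, but the highest of them (5.07) nearly touched the lowest control (5.10). Over all genes, 0.766% lay apart in this direction. The difference was -1.16 ± 0.28 log2 (SE), 2.24-fold lower, with limma adjusted p = 0.332 (probe set 17331720, chromosome 16). Within the 7 arrays whose sample names share a number (4 Jag1+/-Rfng+/- and 3 control), a possible batch of unstated meaning, it was -1.18 ± 0.33 (limma adjusted p = 0.823).

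Adamts16, an ADAMTS protease linked to blood pressure in rats, read 4.39, 4.68, 4.78, 4.46 and 4.42 in Jag1+/-Rfng+/- replicates 1 to 5, against 5.88, 5.90, 6.76, 4.89 and 4.69 in control replicates 1 to 5. The mutant arrays sat in a narrow band (SD 0.18), the controls spread widely (SD 0.84), and control replicate 5 lay inside the mutant range. The difference was -1.08 ± 0.32 log2 (SE), 2.11-fold lower (limma adjusted p = 0.522), and -1.27 ± 0.37 within the 7 arrays (limma adjusted p = 0.823).

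Adamtsl1, also called punctin, a secreted matrix protein without protease activity, read 3.89, 3.90, 4.04, 4.16 and 3.70 in Jag1+/-Rfng+/- replicates 1 to 5, against 4.35, 4.75, 4.94, 4.01 and 4.47 in control replicates 1 to 5. Control replicate 4 alone fell inside the mutant range. The difference was -0.57 ± 0.17 log2 (SE), 1.48-fold lower (limma adjusted p = 0.491), and -0.62 ± 0.23 within the 7 arrays (limma adjusted p = 0.848). Leaving Jag1+/-Rfng+/- replicate 5 out of these arrays gave -0.53 ± 0.24 and took its unadjusted p above 0.05.

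Mmp2, gelatinase A, read 5.09, 7.05, 6.28, 7.34 and 4.93 in Jag1+/-Rfng+/- replicates 1 to 5, against 7.35, 8.22, 8.07, 6.38 and 7.02 in control replicates 1 to 5. Jag1+/-Rfng+/- replicates 1 and 5 were far below the rest, while replicates 2 and 4 lay among the controls. The difference was -1.27 ± 0.50 log2 (SE), 2.41-fold lower (limma adjusted p = 0.661). Leaving out Jag1+/-Rfng+/- replicate 1 or 5 or control replicate 2 or 3 took its unadjusted p above 0.05. Within the 7 arrays it was -1.15 ± 0.62 (limma adjusted p = 0.878), and without Jag1+/-Rfng+/- replicate 5 there it was -0.66 ± 0.49 (limma adjusted p = 0.930). Of the 4 genes, it alone had an unadjusted p above 0.05 in the 7 arrays.

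**Figure D2:**
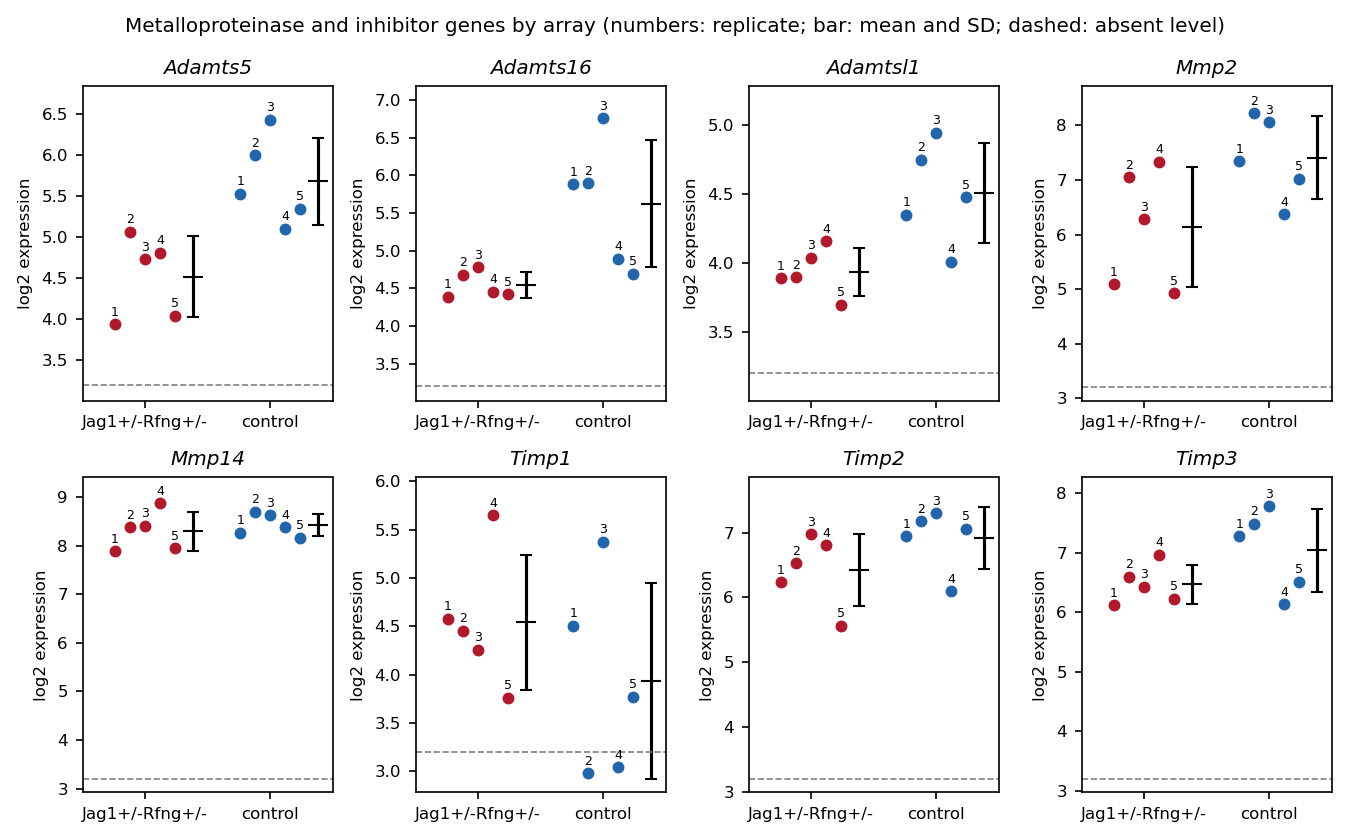
Log2 expression (y axis) of 8 genes on each array, Jag1+/-Rfng+/- left and control right. Numbers give the replicate, bars the mean and SD (n = 5 each) and the dashed line the absent level of 3.20. Adamts5 is the only one of the 8 whose groups do not overlap, and Timp1 dips below the line on control replicates 2 and 4.

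Like Mmp2 itself, the genes that act with Mmp2 at the cell surface did not pass the adjusted threshold. Mmp14, the membrane-anchored activator of Mmp2, read 7.89 to 8.88 in Jag1+/-Rfng+/- tracts and 8.17 to 8.71 in control tracts, with a difference of -0.13 log2 (95% interval -0.53 to 0.28, limma adjusted p = 0.921). Timp2 read 6.23, 6.53, 6.97, 6.80 and 5.57 in Jag1+/-Rfng+/- replicates 1 to 5, against 6.94, 7.18, 7.30, 6.10 and 7.06 in control replicates 1 to 5. The groups overlapped, and the difference was -0.50 (95% interval -1.10 to 0.11, limma adjusted p = 0.777). Reck, a membrane-anchored inhibitor of several Mmp proteins, averaged 5.40 ± 0.40 in Jag1+/-Rfng+/- and 5.65 ± 0.31 in control tracts (SD, n = 5 each; limma adjusted p = 0.857).

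The inhibitor genes did not share a direction. Timp3, which binds to matrix, read 6.12, 6.596, 6.43, 6.96 and 6.23 in Jag1+/-Rfng+/- replicates 1 to 5, against 7.27, 7.48, 7.78, 6.13 and 6.51 in control replicates 1 to 5. Controls 1 to 3 were above all mutants and controls 4 and 5 among them, with a difference of -0.57 (95% interval -1.21 to 0.07, limma adjusted p = 0.755). Timp1, an inhibitor gene known to be induced in injured liver, went the other way, at 4.58, 4.45, 4.26, 5.65 and 3.76 in Jag1+/-Rfng+/- replicates 1 to 5 and 4.51, 2.98, 5.37, 3.05 and 3.77 in control replicates 1 to 5. The difference was 0.61 (95% interval -0.39 to 1.603, limma adjusted p = 0.846). Control replicates 2 and 4 read at the absent level. The difference was 0.33 without Jag1+/-Rfng+/- replicate 4, 0.37 without control replicate 2 and 0.38 without control replicate 4. Without control replicate 3 it was 0.96, and its unadjusted p was then under 0.05. Timp4 read 2.65 to 3.09 in Jag1+/-Rfng+/- and 2.62 to 2.90 in control tracts, all at the absent level.

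Among the proteoglycan-cutting ADAMTS genes besides Adamts5, Adamts1 and Adamts9 differed by -0.37 and -0.46 log2 (95% intervals -0.84 to 0.10 and -1.02 to 0.10). Adamts4, another aggrecanase, lay at 0.20 (95% interval -0.25 to 0.64). Versican itself, Vcan, averaged 4.64 ± 0.54 in Jag1+/-Rfng+/- and 4.63 ± 0.46 in control tracts (SD, n = 5 each). Adamts12, whose protein cuts the cartilage matrix protein COMP, differed by -0.42, and its highest value was control replicate 3 at 5.10. Adamts6 and Adamts10, both tied to fibrillin, differed by -0.20 and 0.02. Adamts14, a procollagen N-propeptidase, read 4.54 to 5.62 in Jag1+/-Rfng+/- and 3.95 to 4.90 in control tracts, a difference of 0.40. Its dimmer probe set differed by -0.02, so the 2 probe sets do not share a direction. All of these had limma adjusted p of at least 0.754. Adamts13, the protease of von Willebrand factor, differed by -0.26 (95% interval -0.70 to 0.18), and its substrate gene Vwf by 0.42 ± 0.32 (SE, limma adjusted p = 0.846).

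Among the other Mmp genes above the absent level, Mmp19 and Mmp23 differed by -0.32 and -0.21 log2. Mmp11, a stromal protease, differed by -0.10 on the brighter and 0.14 on the dimmer of its 2 probe sets. Without Jag1+/-Rfng+/- replicate 5, which read 4.16 where the other 4 read 5.27 to 5.34, the brighter set gave 0.13. Mmp9, gelatinase B, read 6.35, 4.91, 5.58, 5.47 and 5.41 in Jag1+/-Rfng+/- replicates 1 to 5, against 5.02, 5.61, 5.35, 4.37 and 5.46 in control replicates 1 to 5. Only replicate 1 of the mutants was above all controls, and the difference was 0.38 (95% interval -0.21 to 0.98, limma adjusted p = 0.841). Mmp8, neutrophil collagenase, read 5.97 to 6.94 in Jag1+/-Rfng+/- and 5.84 to 6.78 in control tracts, with a difference of 0.00 (95% interval -0.51 to 0.50), and Mmp25, a leukocyte enzyme, differed by -0.07. Mmp7, an epithelial enzyme, differed by 0.01 on its brighter probe set, which was at the edge of the absent level. Its dimmer probe set averaged 2.38 in Jag1+/-Rfng+/- and 2.18 in control tracts, both at the absent level, and differed by 0.20. The mean of the neutrophil marker list lay at 0.01 to 0.57 relative to the control mean on the Jag1+/-Rfng+/- arrays and at -0.40 to 0.33 on the control arrays. In that list, 4 of 12 genes had an unadjusted p under 0.05, all higher, against 2.98% of all genes, and 0 passed the adjusted threshold. These 4 were Ctsg, Prtn3, Mpo and Elane. Of the 12 genes 8 were higher and 4 lower: Retnlg at -0.37, S100a9 at -0.08, Camp at -0.04 and S100a8 at -0.02. The list as a whole thus did not share a direction. The part of neutrophil content in the values of Mmp8, Mmp9 and Mmp25 was not tested.

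Among the Adamtsl genes, Adamtsl2, which binds fibrillin and a latent TGF-beta binding protein, differed by -0.04 (95% interval -0.63 to 0.55). Its values were 5.38 to 5.99 in Jag1+/-Rfng+/- and 4.99 to 6.72 in control tracts. Adamtsl4, a partner of fibrillin in the lens fibres of the eye, differed by -0.09 (95% interval -0.46 to 0.27). Adamtsl5 read 3.90 to 4.44 in Jag1+/-Rfng+/- and 3.57 to 4.03 in control tracts, a difference of 0.24 (95% interval -0.05 to 0.53). Their adjusted p values in limma were at least 0.777.

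Many of the members varied together from array to array, within both groups. The median of the 30 genes above the absent level, relative to their control means, was -0.39, -0.16, 0.01, 0.12 and -0.34 on Jag1+/-Rfng+/- replicates 1 to 5 and -0.06, 0.19, 0.28, -0.43 and -0.17 on control replicates 1 to 5. Jag1+/-Rfng+/- replicates 1 and 5 and control replicate 4 were low, and control replicate 3 was high. Control replicate 4 was the lowest of its group for 17 of the 30 genes and Jag1+/-Rfng+/- replicate 4 the highest of its group for 18. The portal fibroblast list mean ran at -1.24, -0.40, -0.78, -0.08 and -1.34 on Jag1+/-Rfng+/- replicates 1 to 5 and 0.03, 0.23, 0.44, -0.62 and -0.08 on control replicates 1 to 5. It was lowest on the mutant arrays where Mmp2, Adamts5 and Timp3 were lowest, and among controls it was lowest on replicate 4 and highest on replicate 3. Of its 14 measured genes 12 were lower, 8 of them with an unadjusted p under 0.05 and 0 past the adjusted threshold, and the one at the absent level was Clec3b. The biliary epithelium list ran from -1.47 to -0.70 on Jag1+/-Rfng+/- arrays and from -0.45 to 0.60 on control arrays. Of its genes 8 of 8 were lower, each with an unadjusted p under 0.05, and 0 passed the adjusted threshold. The background for both lists, lower at an unadjusted p under 0.05, was 3.79% over all genes. It was 5.43% over genes with a mean above the absent level. The stellate cell list, another source of these enzymes, ran from -0.39 to 0.11 on Jag1+/-Rfng+/- arrays and from -0.09 to 0.06 on control arrays. The smooth muscle list ran from -1.05 to 1.32 on Jag1+/-Rfng+/- arrays, highest on replicate 4, and from -0.99 to 0.59 on control arrays, lowest on replicate 4.

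**Figure D3:**
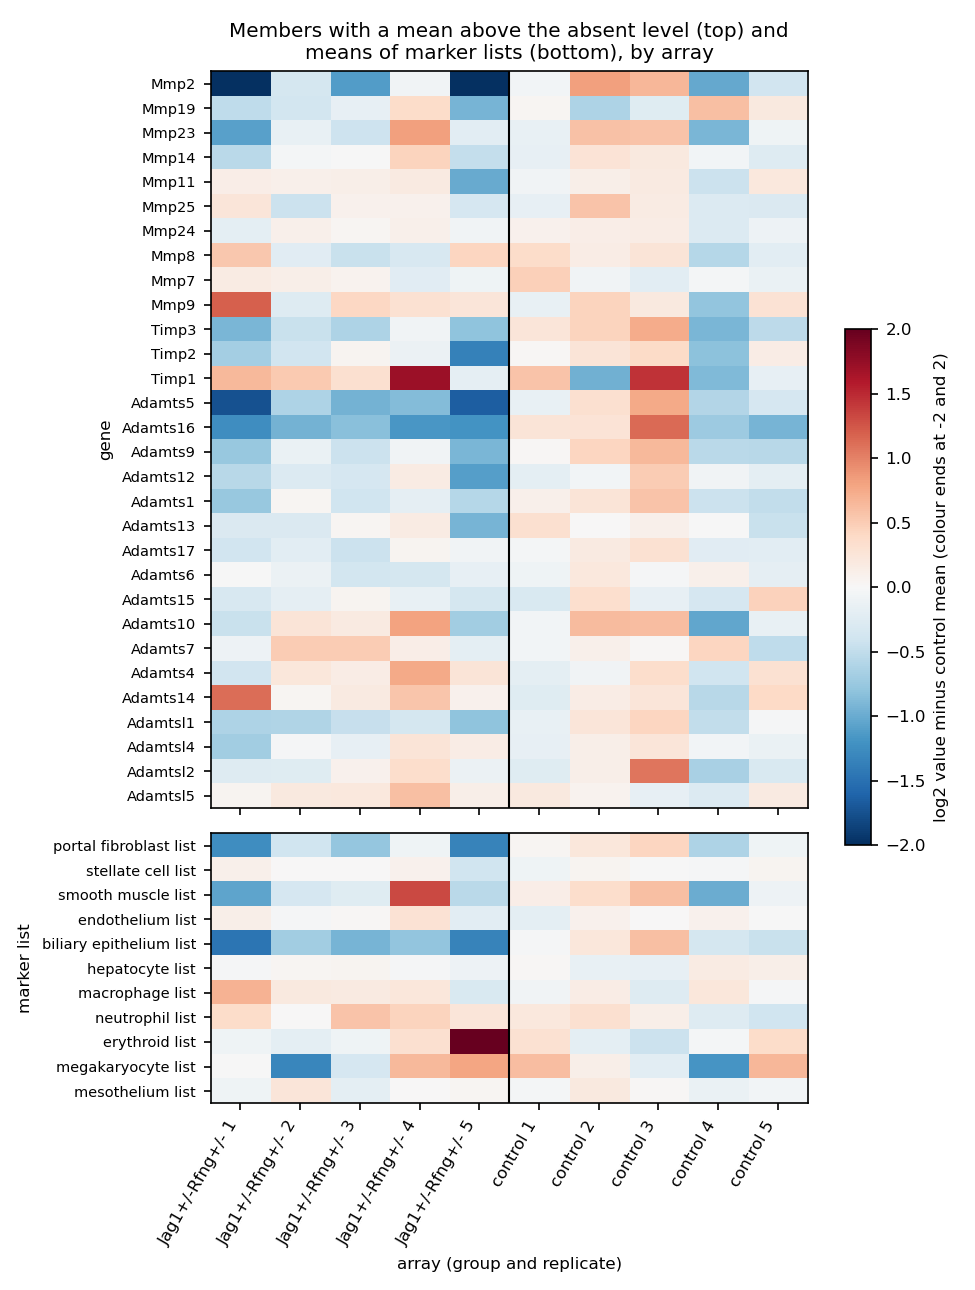
Log2 value minus control mean (colour) of the 30 genes above the absent level (top) and of 11 marker list means (bottom), with the 5 Jag1+/-Rfng+/- arrays left of the 5 control arrays. Mmp2 and Adamts5 are lowest on Jag1+/-Rfng+/- replicates 1 and 5, where the portal fibroblast list is at -1.24 and -1.34. The colour scale ends at -2 and 2.

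With the portal fibroblast list mean as a covariate in the same fit, the lower values of the 4 leading genes shrank or turned. Adamts5 differed by -0.43 ± 0.20 log2 (SE, limma adjusted p = 0.688), Adamts16 by -0.56 ± 0.39 (limma adjusted p = 0.789), Adamtsl1 by -0.21 ± 0.16 (limma adjusted p = 0.815) and Mmp2 by 0.22 ± 0.19 (limma adjusted p = 0.829). Of the 30 genes above the absent level, 8 were lower and 22 higher with the covariate, against 22 lower and 8 higher without it, and 16 changed sign. Without the covariate, 7101 of all 12852 genes above that level were lower and 5751 higher. The median of the 30 genes was 0.18 with the covariate and -0.16 without. The split and median over all genes with the covariate are not given here. Whether the turn to higher values is particular to the members therefore cannot be told. At an unadjusted p under 0.05 there were then 6 of the 49 members, against 7.53% of all genes in the same fit. All 6 were higher, 0 passed the adjusted threshold, and 1 of them, Mmp17, had a mean at the absent level. The 7.53% counts both directions, and the share of all genes higher in this fit is not given here. The largest of the 6 were Timp1 at 1.52 ± 0.49 (limma adjusted p = 0.583) and Adamts10 at 1.01 ± 0.18 (limma adjusted p = 0.260). The list mean itself differs between the groups, by -0.77 on average, so this fit sets members against fibroblast genes and says nothing of their amount per tract.

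**Figure D4:**
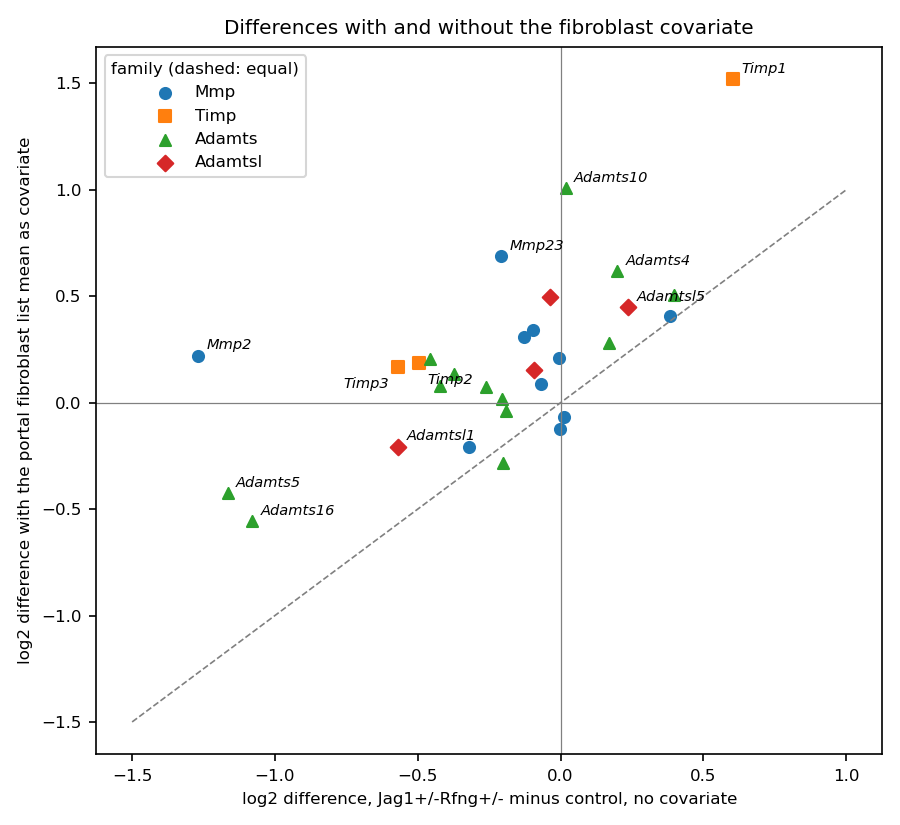
Log2 difference (Jag1+/-Rfng+/- minus control) of the 30 genes above the absent level without a covariate (x axis) and with the portal fibroblast list mean as covariate (y axis), by family. The dashed line marks equal values. Mmp2 moves from -1.27 on the x axis to 0.22 on the y axis, and Timp1 is at 1.52 on the y axis.

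Genes of the wider protease system showed the same absence of adjusted calls. Of 60 measured genes in 6 lists (ADAM proteases, astacin proteases and their enhancers, plasminogen activation, proprotein convertases, other inhibitors and partners, and substrates), 0 passed the adjusted threshold. At an unadjusted p under 0.05 there were 7 lower and 1 higher, 13.3% in all against 6.76% of all genes. The median difference was -0.02 log2. Matn2, a matrilin of the pericellular matrix, read 5.52, 5.80, 5.67, 6.35 and 5.49 in Jag1+/-Rfng+/- replicates 1 to 5, against 7.04, 7.04, 7.34, 6.46 and 6.67 in control replicates 1 to 5. Its groups did not overlap, and it was 2.21-fold lower (limma adjusted p = 0.108). Mug1, a murinoglobulin of the alpha-macroglobulin family that traps proteases in plasma, read 6.29, 7.47, 6.83, 5.82 and 5.67 in Jag1+/-Rfng+/- replicates 1 to 5, against 8.57, 7.89, 8.18, 8.06 and 7.74 in control replicates 1 to 5. It was 3.19-fold lower without overlap (limma adjusted p = 0.152), and since near-identical murinoglobulin genes exist, its probes may read more than 1 gene. These were the 2 genes of the 60 whose groups did not overlap, where 1.38% of all genes lay apart in either direction. The laminin gene Lama2 and the matrix glycoprotein gene Thbs2, whose product clears Mmp2 from the cell surface, differed by -1.21 each (limma adjusted p = 0.443 and 0.609), and Pcolce, an enhancer of procollagen processing, by -0.63 (limma adjusted p = 0.723). The lists of ADAM proteases, plasminogen activation and proprotein convertases held 1, 0 and 0 genes at an unadjusted p under 0.05. Adam22 was that gene, at the absent level in both groups, and Adam23 differed by 0.53, Plat by -0.45 and Pcsk6 and Pcsk7 by 0.15 each. Serpinb2 and Tll1 read below the absent level on all 10 arrays.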

How the data were processed

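The authors deposited 1 log2 value for each of 33649 probe sets on each array. The tools listed per the submitters' processing notes are RMA and Partek 6.6, and what each did is not said. RMA as commonly run subtracts background and gives arrays equal distributions, and folds of dim genes come out too small. No scanner files were used. The table held 0 columns of no sample. Probe sets with 1 symbol in the platform annotation were used (23521, with 1814 holding several and 8314 none), and for genes with several the set with the highest mean was taken, which gave 22180 genes. The 49 members have 53 such probe sets, and 4 members have 2. All 49 matched a RefSeq gene (GRCm38.p6) by Entrez identifier. Mmp15 and Adamts2 are not analysed here.

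Samples were grouped by their titles. The groups were tested in R 4.3.3 by limma 3.58.1, with lmFit and two-sided eBayes and no covariate, and with Benjamini-Hochberg adjustment over all genes and a threshold of 0.05. The fit was tested on simulated data. Arrays have no read depth, and their number limits the precision. The members and lists were chosen with earlier results of these data known. Named members were the Timp genes, those with an unadjusted p under 0.05, per family the 6 of lowest p with a mean in either group above the absent level and the 3 of highest mean, and those whose probe sets differ in direction (22 in all). Mmp7, Mmp8, Mmp25, Adamts4 and Adamts13 lie outside this rule and were added once their values were known, as were genes listed only as absent or as partners, markers and substrates. Of each related list, the 2 genes of lowest p were named. Alternatives left out each array or used a replicate block, the 7 arrays sharing a sample-name number, array weights, other eBayes settings, other normalizations, a filter on dim genes, the mean of probe sets, or the fibroblast or hepatocyte list as covariate. Promoter sequences are RefSeq's.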

Additional observations from a re-analysis of the deposited data

Results flagged for a closer look

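In 4 of 82 groups of 5 arrays, 1 array stood far from the other 4, where chance alone gives about 1 in 20 such groups. Mmp11 read 4.16 on Jag1+/-Rfng+/- replicate 5, against 5.27 to 5.34 on the other mutant arrays. Adamtsl5 read 4.44 on Jag1+/-Rfng+/- replicate 4, against 3.90 to 4.04 on the others. Adamts12 read 5.10 on control replicate 3, against 4.40 to 4.53, and Mmp7 read 3.87 on control replicate 1, against 3.19 to 3.35. No cause was tested.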

How the results depend on the processing

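No member passed the adjusted limma threshold under any alternative run. The count at an unadjusted p under 0.05 (4) ranged from 3 to 7 when single arrays were left out and from 4 to 6 otherwise, and with the fibroblast covariate none of its 6 members was among the 4. Over the genes of each fit the share was 6% to 7.11% when single arrays were left out and 5.48% to 7.67% otherwise. The median difference of the members ranged from -0.14 to -0.0082 when single arrays were left out. Over all genes the 2 calls became 2 to 6 without single arrays, 5 with array weights, 11 with trend and robust eBayes, 10 among genes above the absent level, 1 with the fibroblast covariate, 11 with the hepatocyte covariate and 0 in the arrays of the shared number without Jag1+/-Rfng+/- replicate 5. Above the absent level were 30 members, or 31 with the level of 2.91 from Xist and Y-linked genes. The replicate block gave 5 members at an unadjusted p under 0.05, against 6.58% of all genes. The numbers do not pair the samples: same-numbered samples had correlations of deviations from -0.23 to 0.06, and 1 of 5 mutant arrays correlated best with its own number.

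Signs turned as follows, in differences that did not pass the adjusted threshold, and the cause was not tested. With the fibroblast covariate Timp2 was 0.19, Timp3 0.17, Timp4 -0.059, Mmp2 0.22, Mmp7 -0.069, Mmp11 0.34, Mmp14 0.31, Mmp23 0.69, Mmp25 0.086, Adamts1 0.14, Adamts9 0.20, Adamts12 0.077, Adamts13 0.072, Adamtsl2 0.50 and Adamtsl4 0.15. In the arrays of the shared number without Jag1+/-Rfng+/- replicate 5, Timp4 was -0.021, Mmp11 0.18, Mmp19 0.028 and Mmp23 0.010. Mmp11 was 0.020 with probe sets averaged and Adamts10 -0.012 with the hepatocyte covariate. Mmp7 was -0.0036 with array weights, -0.0016 with median centring and -0.0076 with cyclic loess, and Mmp8 was 0.019 with quantile normalization and 0.038 with cyclic loess. Without single arrays Timp1 ranged from 0.33 to 0.96, Mmp9 from 0.18 to 0.54 and Adamts13 from -0.37 to -0.09, with no change of sign. Signs turned for others: Adamts10 ranged from -0.24 to 0.20, Adamtsl2 from -0.20 to 0.23, Adamtsl4 from -0.18 to 0.055, Mmp7 from -0.042 to 0.13, Mmp8 from -0.14 to 0.11, Mmp11 from -0.20 to 0.13, Mmp23 from -0.47 to 0.012 and Mmp25 from -0.15 to 0.074.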
